A study of Mus musculus with 40 samples.

Results

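The nuclear-encoded subunits of the respiratory chain were followed through 40 libraries of the ventral tegmental area, one of the seats of dopamine neurons in the midbrain, from adult mice. Members were chosen by symbol alone. They were the Nduf genes whose name goes on with a, b, c, s or v and a number. Added to these were Sdha to Sdhd and the genes beginning with Uqcr, Cox4 to Cox8 or Atp5. Symbols with -ps, used for pseudogenes, and Cox7a2l were left out. The rule found 84 of the 55471 genes in the table. Of these, 35 belong to complex I, 4 to complex II, 8 to complex III, 19 to complex IV and 18 to complex V. Ndufa4 is named for complex I but its protein is found in complex IV, where it was placed. Atp5s, which encodes coupling factor B, is not a structural subunit and stands with complex V by name only. Of the 84, 79 passed the filter on low counts and were tested. Cox8b, Cox8c, Cox7b2 and Cox6c2 were too low, and a second identifier of Atp5o had no count in any library. Cox6c2, a copy of Cox6c, is annotated as a processed pseudogene, but its symbol does not show it.

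Each of 8 groups held 5 libraries. The groups were DBA females, DBA males, C57/Bl6 females and C57/Bl6 males (C57 below), each once after repeated cross fostering (RCF) and once as unhandled controls. In RCF, pups were moved daily to another foster dam between postnatal days 1 and 4. All tissue was punched from frozen adult brains, and no group carried a transgene. The labels name neither the animal nor the litter behind a library, so the p-values below measure the spread between libraries, which may in part be technical. The questions were whether RCF left a difference in adult expression of these genes, and whether strain and sex differed.

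Complex I oxidises NADH and complex II oxidises succinate, and both pass electrons to ubiquinone. Complex III hands them on to cytochrome c and complex IV to oxygen. The proton gradient built by complexes I, III and IV drives complex V, the ATP synthase. All subunits of complex II are encoded in the nucleus, whereas the other complexes combine nuclear subunits with a few encoded by mitochondrial DNA. Neurons draw most of their ATP from this chain, and inhibitors of complex I are a classical way of damaging midbrain dopamine neurons.

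NRF1 and the ETS factor GABP are the textbook regulators of these genes, so their motifs were searched in RefSeq promoters of 300 bases (GRCm38.p6, 250 before to 50 after the start). The 3 promoters shown belong to Sdhb and Atp5h, which carry the strain results below, and to Cox6a1, which holds both motifs. Capitals mark the NRF1 motif, searched as TGCGCA and GCGC with 1 base between them or as GCGCA followed by TGCGC, and the ETS motif CCGGAAG, each on either strand.
Sdhb (chr4:140961021-140961320, + strand): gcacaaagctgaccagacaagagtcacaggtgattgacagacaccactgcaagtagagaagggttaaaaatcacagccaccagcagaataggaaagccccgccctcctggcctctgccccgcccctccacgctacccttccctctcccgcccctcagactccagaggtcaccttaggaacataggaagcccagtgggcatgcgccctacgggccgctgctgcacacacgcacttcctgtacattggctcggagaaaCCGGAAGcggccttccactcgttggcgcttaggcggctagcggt
Atp5h (chr11:115419870-115420169, - strand): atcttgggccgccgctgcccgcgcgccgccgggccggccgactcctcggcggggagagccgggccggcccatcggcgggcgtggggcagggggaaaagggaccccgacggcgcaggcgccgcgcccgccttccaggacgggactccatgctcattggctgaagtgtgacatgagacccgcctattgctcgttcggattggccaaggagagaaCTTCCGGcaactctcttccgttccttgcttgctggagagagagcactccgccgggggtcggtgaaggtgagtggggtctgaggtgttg
Cox6a1 (chr5:115348909-115349208, - strand): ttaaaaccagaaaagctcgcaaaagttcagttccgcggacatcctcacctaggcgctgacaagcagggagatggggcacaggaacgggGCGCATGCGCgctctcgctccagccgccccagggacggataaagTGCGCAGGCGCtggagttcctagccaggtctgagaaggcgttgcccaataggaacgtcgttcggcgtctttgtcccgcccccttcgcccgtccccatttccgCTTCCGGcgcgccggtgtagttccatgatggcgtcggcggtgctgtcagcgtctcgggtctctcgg
The Sdhb and Atp5h promoters each hold 1 ETS match, and the Cox6a1 promoter holds 2 NRF1 matches and 1 ETS match. Of 83 members with counts, 67 had a promoter in the table. An NRF1 motif stood in 11 of them (16.4%), against 2.89% of all 27025 promoters and 3.96% of the 17492 promoters of protein-coding genes. An ETS motif stood in 15 (22.4%), against 9.12% of all promoters and 11.9% of those of protein-coding genes. At least 1 of these motifs was found in 23 members (34.3%), against 11.4% of all promoters and 15.1% of protein-coding ones. The 3 members with both were Cox6a1, Sdhd and Atp5k. Among the tissue isoforms of complex IV, 4 had a promoter in the table, Cox6b2, Cox7a1, Cox7b2 and Cox8b, and 0 of these held a match. A match here is a run of letters, not a measured binding site.

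Total counts ran from 16913124 to 28179071 per library, and the tested members together took 0.854% to 1.21% of them. Levels below are CPM, the count of a gene relative to the library's total, scaled by trimmed mean of M-values factors unless CPM of total counts is written. The labelled region was not equally visible in all punches: the summed level of 10 dopamine neuron markers ran from 167 to 8639 CPM of total counts. By genes of other brain regions, 4 libraries stood apart. The 8 markers of forebrain glutamate neurons summed to 3819 and 1980 CPM of total counts in replicates 1 and 5 of the C57 male controls and to 4063 in replicate 3 of the DBA female controls, above the sums of the other libraries. Hoxb5, a hindbrain gene, reached 30.6 in replicate 4 of the C57 female RCF group. In that library the 10 pan-neuronal markers summed to 13776 CPM of total counts, the highest of the 40 libraries. Where a median, a count or a named value moved much without 1 of these libraries, the value without it stands beside it.

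Divided by exon length, the members spanned a wide range within each complex. The highest level was that of Atp5a1, the alpha subunit of the ATP synthase, at 295 CPM per kb on average over the 40 libraries. Cox8a, a small structural subunit of complex IV, followed at 288, and Atp5b, the catalytic beta subunit of the ATP synthase, at 255. Cox6a1 stood at 248, Cox6b1 at 239 and Cox4i1 at 213 CPM per kb. Sdha, the flavoprotein that oxidises succinate, had 133 CPM per kb, against 46.9 for its iron-sulfur partner Sdhb. The median member had 52.1 CPM per kb in complex I, 50.1 in complex II, 70.2 in complex III, 84.3 in complex IV and 48.5 in complex V. That order depends on the length used. With the longest transcript of each gene, complex V was the highest at 109.1 CPM per kb and complex II the lowest at 69.3. The order of genes changed as well, with Atp5b first at 565 CPM per kb, then Cox4i1 at 432, Atp5a1 at 346 and Cox8a at 324.

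**Figure D1:**
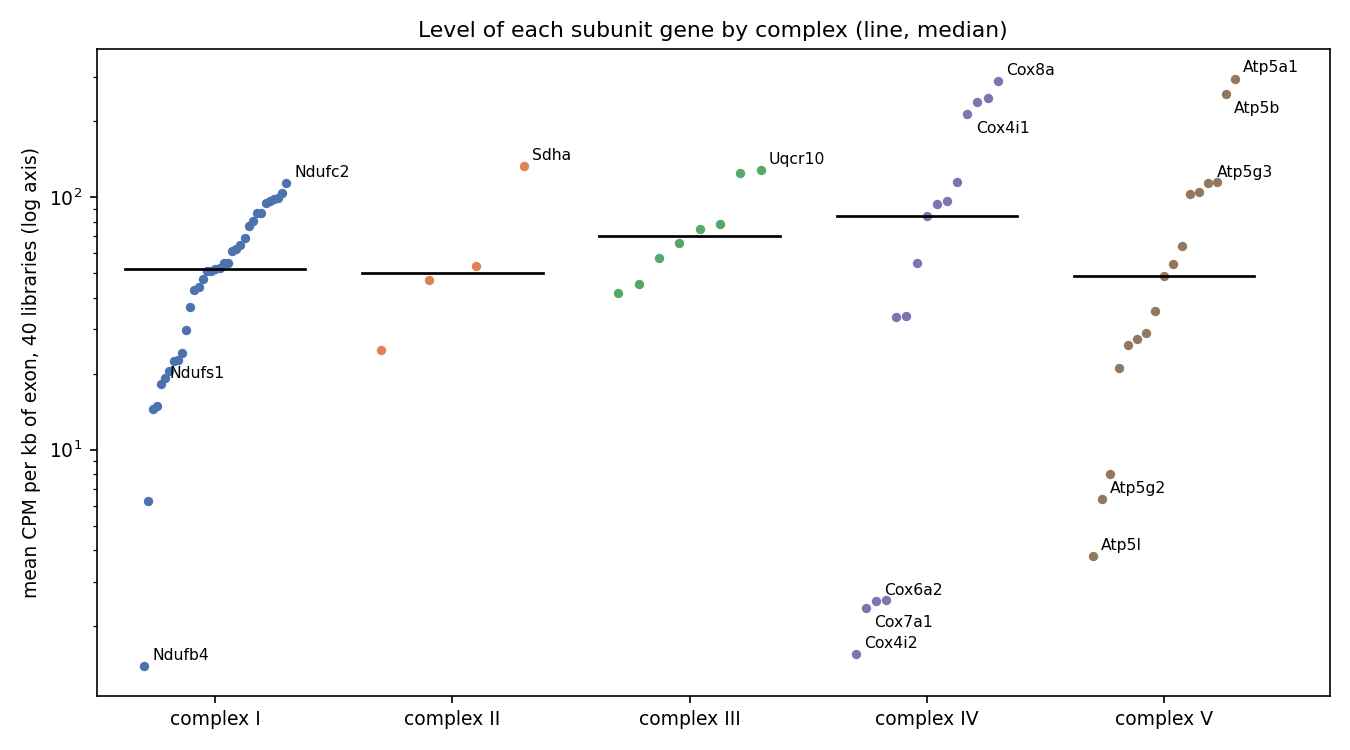
Mean level of each of the 79 tested genes in CPM per kb of exon over 40 libraries (log axis), by complex. Points are genes and lines are medians. Atp5a1 and Cox8a stand at the top at 295 and 288 CPM per kb, and the tissue isoforms of complex IV and Ndufb4 lie below 3 CPM per kb.

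Within families of isoforms, 1 gene carried most of the expression. Cox4i1, the ubiquitous isoform of the largest nuclear subunit of complex IV, stood at 213 CPM per kb, against 1.55 for Cox4i2, the lung and hypoxia isoform. Cox6a1 stood at 248, against 2.50 for Cox6a2, the heart and muscle isoform. The isoforms Cox8b, Cox8c and Cox7b2, not tested, averaged 0.104, 0.001353 and 0.149 CPM, against 178 CPM for Cox8a and 118 CPM for Cox7b. Cox7a2 stood at 93.9, against 2.36 for the heart and muscle isoform Cox7a1, and Cox6b1 at 239, against 2.53 for the testis isoform Cox6b2. Among the 3 genes for the identical c subunit of the ATP synthase, Atp5g3 had 114 CPM per kb, Atp5g1 21.1 and Atp5g2 6.36. Ndufb4, an accessory subunit of complex I, was the lowest tested member at 1.38. With the longest transcript Cox4i2 was the lowest at 1.66, and Ndufb4 stood at 2.73. Of the 75-base exon windows of Ndufb4, the length of a read, 35.2% also occur in other genes, so its count may be split. The other tested members with at least 10% of such windows were Ndufs3 (27.1%), Cox7c (25.0%), Ndufs5 (24.1%), Ndufb9 (20.3%), Atp5h (18.9%), Cox5b (17.2%) and Ndufa12 (11.8%). Their counts are uncertain in the same way.

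Expression of most members was steady between libraries. The SD of log2 CPM within groups had a median of 0.15 over the members, against 0.29 over the 18441 genes tested. Those genes were not matched to the members by level. Sdhb was the steadiest at 0.10. Cox6a2 was the most variable at 1.49, and ran from 0 to 9.42 CPM.

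In the RCF comparisons, 0 of the 79 members changed in any strain and sex. Here and below, a change means an adjusted p under 0.05 in edgeR's quasi-likelihood test, with Benjamini-Hochberg adjustment over all 18441 genes. The background was close to 0 as well: 0.0163% of all genes were called in DBA females, 0.0163% in DBA males, 0.00542% in C57 females and 0.0108% in C57 males. DESeq2 also called 0 members in DBA females, DBA males and C57 males, and 1 in C57 females, Cox6a2. The summed level of all members had overlapping ranges in 3 of the comparisons and, on the scaled values, separate ranges in DBA females.

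The lowest and highest group means of representative subunits of complexes I, III, IV and V follow. Other representative subunits, Sdha, Sdhb, Uqcrc1, Cox4i1 and Atp5b, are given further below. In complex I, Ndufs1, which carries iron-sulfur clusters, had its lowest mean in DBA female RCF mice (135 ± 5.7 CPM, SD, n = 5 as below) and its highest in DBA female controls (157 ± 10.7 CPM). Ndufv1, the NADH-binding subunit, ranged from 124 ± 12.3 CPM in DBA male controls to 141 ± 24.4 CPM in C57 female RCF mice. In complex III, the Rieske protein gene Uqcrfs1 ranged from 80.6 ± 3.34 CPM in DBA male RCF mice to 102 ± 10.3 CPM in C57 female RCF mice. It is among the strain calls in RCF mice below. In complex IV, Cox5a, a structural subunit on the matrix side, ranged from 164 ± 7.52 CPM in C57 male RCF mice to 199 ± 19.7 CPM in DBA female controls. In complex V, Atp5a1 ranged from 852 ± 99.6 CPM in DBA male controls to 995 ± 150.4 CPM in C57 female RCF mice. The large SD in C57 female RCF mice came with replicate 4.

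In DBA females the members were lower by small steps in RCF mice, although none passed the adjusted threshold. The 79 members summed to 8591 to 9604 CPM in DBA female RCF mice, with a median of 9257, against 9784 to 11002 with a median of 10639 in DBA female controls. The lowest control library lay above the highest RCF library on this scale. DBA female controls had the highest median of the 8 groups, and DBA males had medians of 9075 CPM after RCF and 9415 as controls. The same DBA female control libraries enter the sex comparison in controls below. As shares of total counts, with no scaling factors, the ranges overlapped, at 0.883% to 0.986% in RCF mice and 0.923% to 1.08% in controls, where replicate 3 was the lowest. The log2 fold change was below 0 for 75 of 79 members, where 52.3% of all genes were below 0. Its median was -0.18 over the members and -0.01 over all genes. An unadjusted p under 0.05 with a lower level was found for 43 of 79 members, where 7.23% of all genes had one. Because the members move together from library to library, as described below, these 43 are not separate observations. In a bulk punch, fewer cells of a kind and less RNA per cell cannot be told apart.

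All 5 complexes had a negative median in DBA females. It was -0.18 for complex I, -0.11 for complex II, -0.17 for complex III, -0.24 for complex IV and -0.17 for complex V. The 11 ubiquitous subunits of complex IV were all lower, with a median of -0.27 and 9 unadjusted p under 0.05. All 7 core subunits of complex I, which carry the flavin and the iron-sulfur clusters or form the quinone site, were lower, each with an unadjusted p under 0.05. Complex II summed to 787 to 821 CPM in RCF mice and 690 to 901 CPM in controls, so its ranges overlapped. That overlap came with replicate 3 of the controls, and the other controls ran from 842 to 901 CPM, above all RCF libraries. Complex IV summed to 1374 to 1622 CPM in RCF mice and 1629 to 1939 CPM in controls, without overlap, but as CPM of total counts the ranges were 1411 to 1665 in RCF mice and 1624 to 1895 in controls.

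**Figure D2:**
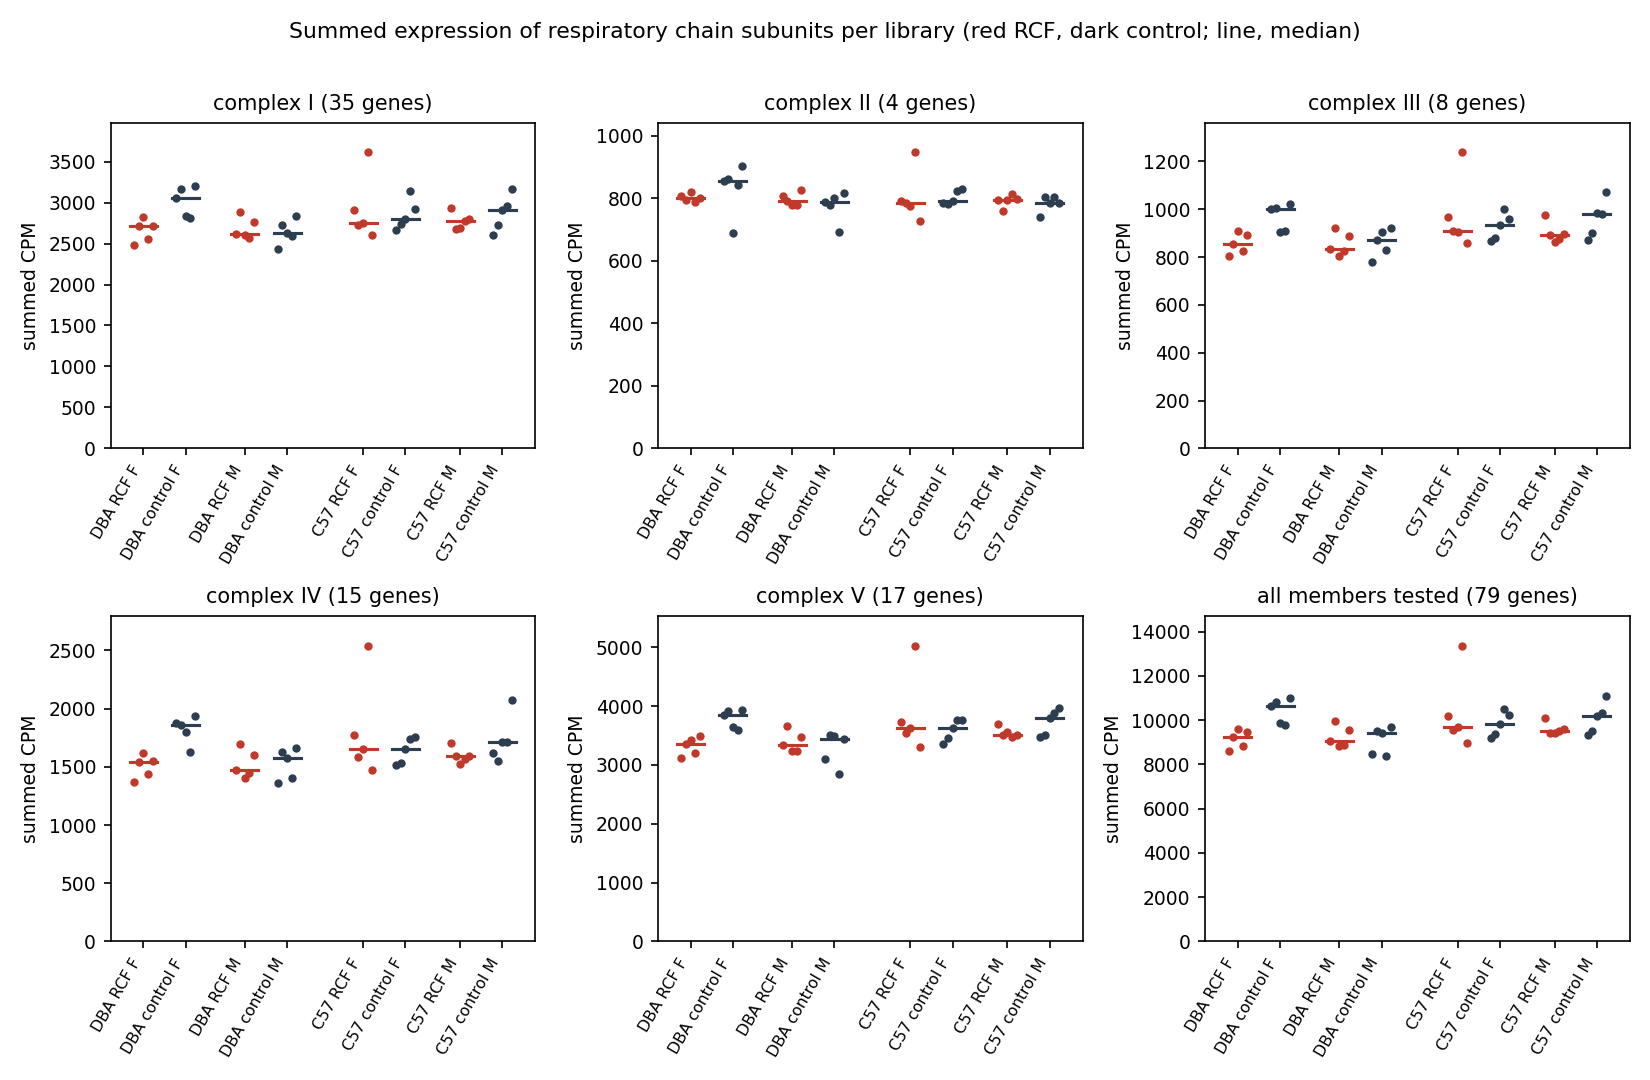
Summed CPM of the tested genes of each complex and of all 79 together (y axes from 0) in the 8 groups. Each point is 1 library, red for RCF and dark for control, and lines are medians. The DBA female RCF libraries lie between 8591 and 9604 CPM in the last panel, below all DBA female controls, and replicate 4 of the C57 female RCF group is the highest point at 13368 CPM.

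The members with the smallest p in DBA females were a core subunit of complex I, a subunit of complex IV and the rotor shaft of the ATP synthase. Atp5c1, which encodes that shaft, the gamma subunit, had 176, 186, 181, 183 and 190 CPM in the DBA female RCF libraries, against 216, 234, 211, 209 and 232 CPM in controls. The groups did not overlap. Its log2 fold change was -0.27 (SE 0.08), with an adjusted p of 0.228 in edgeR's quasi-likelihood test. Ndufs3, the core subunit, had 53.5, 62.6, 66.3, 62.7 and 53.9 CPM in RCF mice, against 70.0, 75.1, 83.4, 67.1 and 72.5 CPM in controls. These did not overlap either. The log2 fold change was -0.30 (SE 0.08), and its edgeR adjusted p was 0.195. Cox8a had 144, 175, 166, 159.5 and 173 CPM in RCF mice, against 204, 203, 244, 177.5 and 204 CPM in controls. Its highest RCF library lay just below the lowest control, at a log2 fold change of -0.34 (SE 0.10) and an edgeR adjusted p of 0.228.

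In all, 14 of 79 members had every DBA female RCF library below every control, against 2.55% of all genes, and 0 had every RCF library above every control (1.75% of all genes). As CPM of total counts 5 of the 14 still had no overlap, Cox6a1, Cox6c, Atp5b, Atp5c1 and Atp5f1, and on the scaled values without control replicate 3 it was 27 members. The share of all genes was taken only with all libraries on the scaled values, and leaving out a library makes non-overlap easier to reach. The 14 were Ndufs1, Ndufs3 and Ndufa7 of complex I, Uqcrc1 of complex III, Cox4i1, Cox6a1, Cox6c, Cox7a2 and Cox8a of complex IV, and Atp5b, Atp5c1, Atp5f1, Atp5h and Atp5mpl of complex V. Uqcrc1, a core protein of complex III, averaged 212 ± 7.51 CPM in RCF mice and 255 ± 14.9 CPM in controls (SD, n = 5 each). Cox4i1 averaged 295 ± 22.3 CPM in RCF mice and 358 ± 27.7 CPM in controls. Atp5b averaged 993 ± 52.9 CPM in RCF mice and 1142 ± 32.2 CPM in controls. Sdha averaged 543 ± 12.8 CPM in RCF mice and 547 ± 63.6 CPM in controls, where replicate 3 had 437 CPM and the others 563 to 602. Its log2 fold change was -0.01 with that library and -0.08 without it. The smallest p among the few members that were higher belonged to Ndufv3 (log2 fold change 0.08), Cox6a2 (0.57) and Cox7a1 (0.19), with edgeR adjusted p of 0.789, 0.832 and 0.913. The sign for Cox7a1 turned without RCF replicate 3 or without control replicate 2, and the value for Cox6a2 was 2.07 without control replicate 3.

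**Figure D3:**
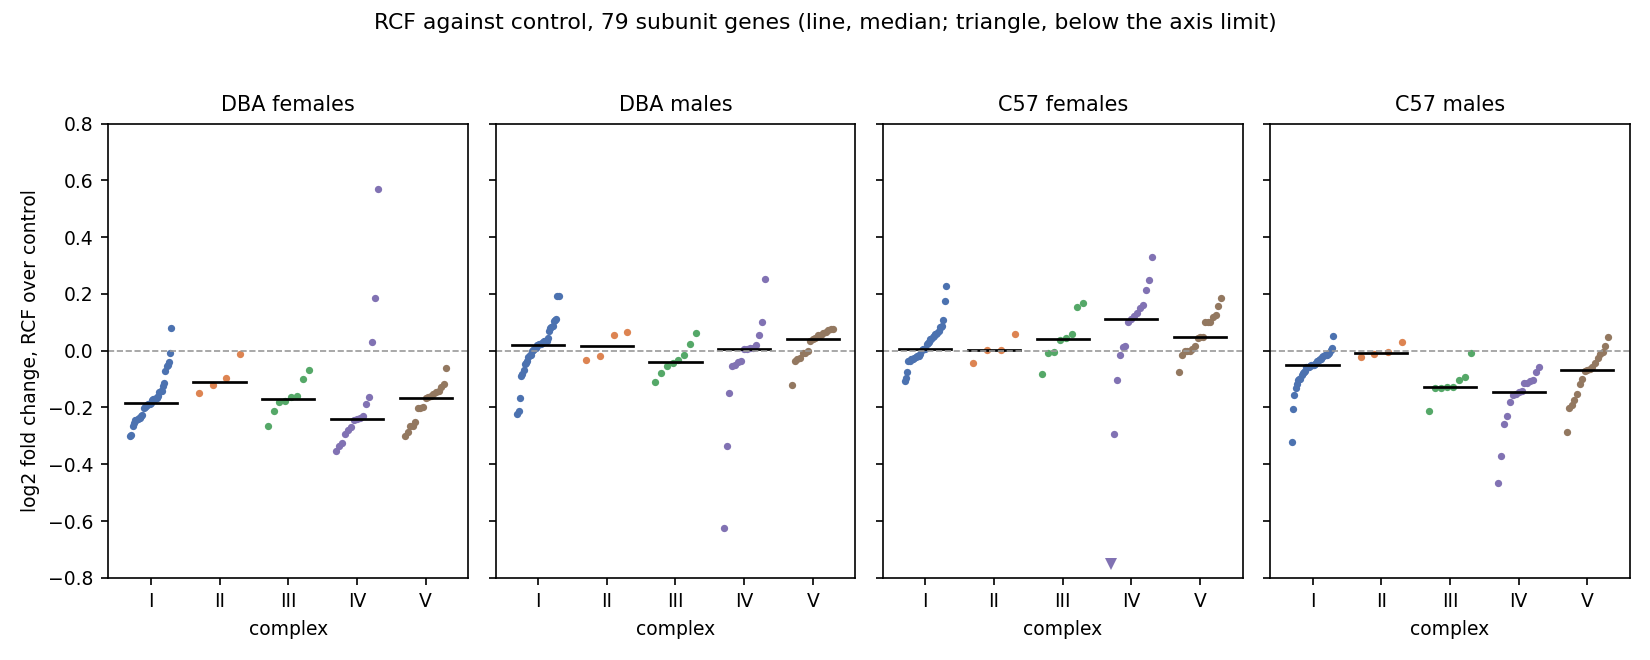
Log2 fold change of RCF over control for the 79 tested genes by complex, in the 4 combinations of strain and sex. Points are genes, lines are medians, and the triangle is Cox6a2 at -3.75, beyond the axis. In DBA females 75 of 79 points lie below 0, with medians from -0.24 in complex IV to -0.11 in complex II.

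Other genes moved with this pattern in DBA females. The 9 tested mitochondrially encoded subunits were all lower (median log2 fold change -0.23), as were 63 of 77 mitochondrial ribosomal protein genes (median -0.11, 1 of them called), 15 of 18 genes of the tricarboxylic acid cycle (median -0.12) and 14 of 16 genes of glycolysis (median -0.13). Regulators of mitochondrial biogenesis were lower for 10 of 15 (median -0.03) and cytosolic ribosomal protein genes for 72 of 91 (median -0.05). Cell type markers shifted too, with overlapping ranges. The 10 pan-neuronal markers summed to 6240 to 7185 CPM of total counts in RCF libraries and 6911 to 8285 in controls, and 8 of 10 were lower (median -0.29). The 6 markers of parvalbumin type neurons summed to 719 to 963 in RCF libraries and 916 to 1276 in controls, with 6 of 6 lower. The 10 markers of myelinating oligodendrocytes, 10 of 10 lower, summed to 5830 to 15376 in RCF libraries and 7197 to 14484 in controls. The 8 forebrain markers, 8 of 8 lower, summed to 285 to 437 in RCF libraries and 332 to 4063 in controls, where replicate 3 was the highest. The 10 dopamine neuron markers were all higher, summing to 217 to 4864 in RCF libraries and 209 to 1116 in controls. None of these marker genes was at 0 in every library of either group, and 0 of them was called. The part of cell content in the result was not tested. Without the 4 libraries named above, of which replicate 3 of these controls is 1, the median over the members was -0.195 on the log2 scale. With total counts in place of the scaling factors it was -0.11, and 0 members were called in either case.

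In DBA males the members stood near 0, with a median log2 fold change of 0.01 and 45 of 79 higher (48.4% of all genes were), and a median of -0.01 with total counts in place of the scaling factors. Their sums were 8819 to 9963 CPM in RCF mice and 8364 to 9685 CPM in controls. The smallest p belonged to Ndufc2, an accessory subunit of complex I, at a log2 fold change of 0.19 (SE 0.08, edgeR adjusted p 0.733). Ndufv3 (-0.22), Ndufs5 (-0.17) and Cox6b2 (-0.33) led the lower members, and Ndufb6 (0.19) and Ndufv1 (0.10) followed Ndufc2, with edgeR adjusted p between 0.733 and 0.825. An unadjusted p under 0.05 was reached by 2 members, where 6.72% of all genes reached it.

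In C57 females 1 library set the pattern. The members summed to 8972 to 13368 CPM in C57 female RCF mice and 9195 to 10478 CPM in C57 female controls. RCF replicate 4, the library with hindbrain genes, was the highest, and without it the other RCF libraries reached 10168. The median log2 fold change was 0.03 with it and -0.05 without it, and with total counts as the scaling it was -0.01. The largest difference was a lower level of Cox6a2, at 0.391, 0.502, 0.281, 0 and 0.302 CPM in RCF libraries, against 8.597, 1.49, 0.239, 0.850 and 9.42 CPM in controls. Replicates 1 and 5 of the controls were far above the rest, and the groups overlapped through 1 low control. The log2 fold change of -3.75 (SE 1.03) had an adjusted p of 0.187 in edgeR and -3.79 an adjusted p of 0.021 in DESeq2. Beside it, 6 striated muscle markers summed to 1.97 to 4.0 CPM of total counts in RCF libraries and 3.6 to 17.5 in controls. The 8 hypothalamic markers summed to 10.9 to 57.8 in RCF libraries and 13.6 to 394.7 in controls. Th, a dopamine neuron marker, stood at 1085, 732, 848, 0.655 and 1248 CPM of total counts in RCF libraries 1 to 5. In controls 1 to 5 Th stood at 10.95, 28.4, 1123, 551 and 29.35. Their part in the result was not tested. Ndufa10 (0.23), Cox6a1 (0.25) and Cox4i1 (0.21) had the smallest p among higher members, with edgeR adjusted p of 0.378 to 0.432. Without RCF replicate 4 these were 0.041, 0.083 and 0.014. Ndufa7 (-0.11) and Ndufa13 (-0.10) followed Cox6a2 among lower members. An unadjusted p under 0.05 was reached by 3 members, where 12.5% of all genes reached it.

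In C57 males 73 of 79 members were lower in RCF mice (53.3% of all genes were), with a median log2 fold change of -0.07, against -0.02 over all genes. Their sums were 9433 to 10102 CPM in RCF mice and 9306 to 11070 CPM in controls, so the ranges overlapped. The median was -0.15 for complex IV, -0.13 for complex III and -0.01 for complex II. These were -0.19, -0.18 and -0.03 without control replicate 1, and -0.07, -0.07 and 0.03 without control replicate 5. Atp5h, a peripheral stalk subunit of the ATP synthase, had 107, 92.4, 92.1, 96.8 and 93.0 CPM in RCF libraries, against 95.9, 104.6, 117, 113 and 118 CPM in controls. The ranges overlapped, and the log2 fold change of -0.19 (SE 0.08) had an edgeR adjusted p of 0.653. Atp5k (-0.29) and Ndufa1 (-0.21) were next, and Ndufa11 (0.05), Sdha (0.03) and Atp5g2 (0.05) led the higher members, with edgeR adjusted p of 0.657 to 0.957. An unadjusted p under 0.05 with a lower level was found for 4 members, where 4.41% of all genes had one. Among the controls, replicate 5 had the highest sum and replicate 1 the lowest, and both carried forebrain markers. The median over all members was -0.11 without replicate 1, -0.03 without replicate 5 and -0.05 without both. The unadjusted count was 7 without replicate 1 and 2 without replicate 5, with no share of all genes given for those fits. Markers of other cells moved in the same comparison, with 0 called: 10 of 10 oligodendrocyte markers were lower (median -0.37, summed CPM of total counts 8806 to 17930 in RCF mice and 8660 to 25951 in controls), as were 6 of 6 parvalbumin type markers (median -0.42, 648 to 1062 in RCF mice and 680 to 1556 in controls). The 8 forebrain markers were all lower (median -2.57, 283 to 650 in RCF mice and 214 to 3819 in controls), as were all 8 endothelial (median -0.23, 216 to 281 in RCF mice and 224 to 336 in controls) and all 8 microglial markers (median -0.13, 234 to 337 in RCF mice and 269 to 333 in controls). Of the 10 pan-neuronal markers 6 were lower (median -0.21, 6453 to 7272 in RCF mice and 6645 to 8699 in controls). The 10 dopamine neuron markers were all higher (median 1.05, 243 to 6920 in RCF mice and 167 to 4184 in controls). None of these genes was at 0 in every library of either group, and the part of cell content was not tested.

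Averaged over the 4 comparisons, 73 of 79 members were lower after RCF (53.2% of all genes were), with a median log2 fold change of -0.05. Of them 0 were called (0.0217% of all genes), and 9 were lower at an unadjusted p under 0.05 (4.44% of all genes). Without replicate 4 of the C57 female RCF group the median was -0.07 and that count 31, with no share of all genes given for that fit. The smallest p belonged to Atp5h (-0.09), Uqcr11 (-0.12) and Uqcrb (-0.12), with an edgeR adjusted p of 0.690 for each. Cox7a1 (0.16), Sdha (0.02) and Ndufb6 (0.02) led the higher members. The RCF effect in DBA minus that in C57 had a median of -0.07 over the members, with 0 called (0.0108% of all genes) and 3 at an unadjusted p under 0.05 (6.0% of all genes). Uqcrc1 (-0.22), Atp5d (-0.20) and Cox4i1 (-0.21) were lowest by p and Cox6a2 (2.03), Ndufc2 (0.08) and Ndufa3 (0.11) highest, with edgeR adjusted p of 0.808 to 0.931. Without replicate 4 of the C57 female RCF group the median was -0.02, and the values were -0.14 for Uqcrc1, -0.15 for Atp5d and -0.11 for Cox4i1. The RCF effect in females minus that in males had a median of -0.03, with 0 called (0.00542% of all genes), and 0 members at an unadjusted p under 0.05 (8.48% of all genes). Without the same library that median was -0.09, and 6 members were lower at an unadjusted p under 0.05, with no share of all genes given for that fit. Its smallest p belonged to Atp5c1 (-0.13), Ndufa12 (-0.13) and Ndufb5 (-0.15) among lower members and Ndufv3 (0.17), Cox4i2 (0.27) and Uqcrfs1 (0.08) among higher ones, with edgeR adjusted p of 0.655 to 0.820. DESeq2 called 0 members in these 3 comparisons. The difference between DBA females and the other 3 combinations was not tested by itself.

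Strain gave the differences that passed the test. The submitters' notes name the genome GRCm38/mm10, and whether DBA and C57 reads map to it equally well was not tested. In controls, 10 of 79 members differed between DBA and C57 mice (12.7%), against 16.0% of all genes. In RCF mice, 23 of 79 differed (29.1%), against 23.8% of all genes. With all libraries and the scaling factors, the share of members was below the background in controls and above it in RCF mice. The directions were uneven: in controls 3 were higher in DBA (7.88% of all genes were) and 7 lower (8.13%), and in RCF mice 1 was higher (11.3%) and 22 were lower (12.4%). The control and RCF comparisons share no library. Of the 10 calls in controls, 8 (80%) were called in RCF mice with the same direction, and these are 34.8% of the 23. They were Sdhb, higher in DBA, and Atp5h, Atp5mpl, Cox5b, Cox7a1, Cox7c, Ndufc2 and Uqcrh, lower in DBA. Of these 8, Cox7c, Ndufc2 and Uqcrh lost the call in RCF mice without replicate 4 of the C57 female RCF group. Of all 79 members, 62 had the same sign in both. Shared calls and shared signs were not counted over all genes, so neither is set against a background.

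Sdhb, the iron-sulfur subunit of complex II (ENSMUSG00000009863.14, chr4:140961203-140979193, + strand), was the 1 member called higher in DBA in both comparisons, among 12 with a positive log2 fold change in both. It ran from 102 to 118 CPM with a median of 115 in DBA RCF mice, against 83.7 to 105 with a median of 91.9 in C57 RCF mice. In controls it ran from 106 to 134 with a median of 119.6 in DBA, against 86.2 to 104.5 with a median of 94.3 in C57. The control ranges did not overlap, with DBA above as for 1.16% of all genes, and the RCF ranges overlapped by a narrow margin. The log2 fold change was 0.28 (SE 0.05) in RCF mice and 0.34 (SE 0.05) in controls, with adjusted p of 2.144e-05 and 1.075e-06 in edgeR's quasi-likelihood test. The other 3 genes of complex II, Sdha, Sdhc and Sdhd, were not called in either comparison.

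Atp5h, the d subunit of the ATP synthase stalk (ENSMUSG00000034566.10, chr11:115415689-115419962, - strand), was lower in DBA. It ran from 74.4 to 85.0 CPM with a median of 80.6 in DBA RCF mice, against 89.6 to 133 with a median of 96.9 in C57 RCF mice. In controls it ran from 71.3 to 101.6 with a median of 86.8 in DBA, against 95.5 to 118 with a median of 104.8 in C57. All 10 DBA RCF libraries lay below all 10 C57 RCF libraries, as for 2.13% of all genes, and the control ranges overlapped. The log2 fold change was -0.33 (SE 0.05) in RCF mice and -0.28 (SE 0.05) in controls, with adjusted p of 1.395e-05 and 0.0001528 in edgeR. Atp5mpl, a small proteolipid bound to the same complex, fell to a similar degree, by 0.36 (SE 0.08) in RCF mice and 0.31 (SE 0.08) in controls on the log2 scale.

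**Figure D4:**
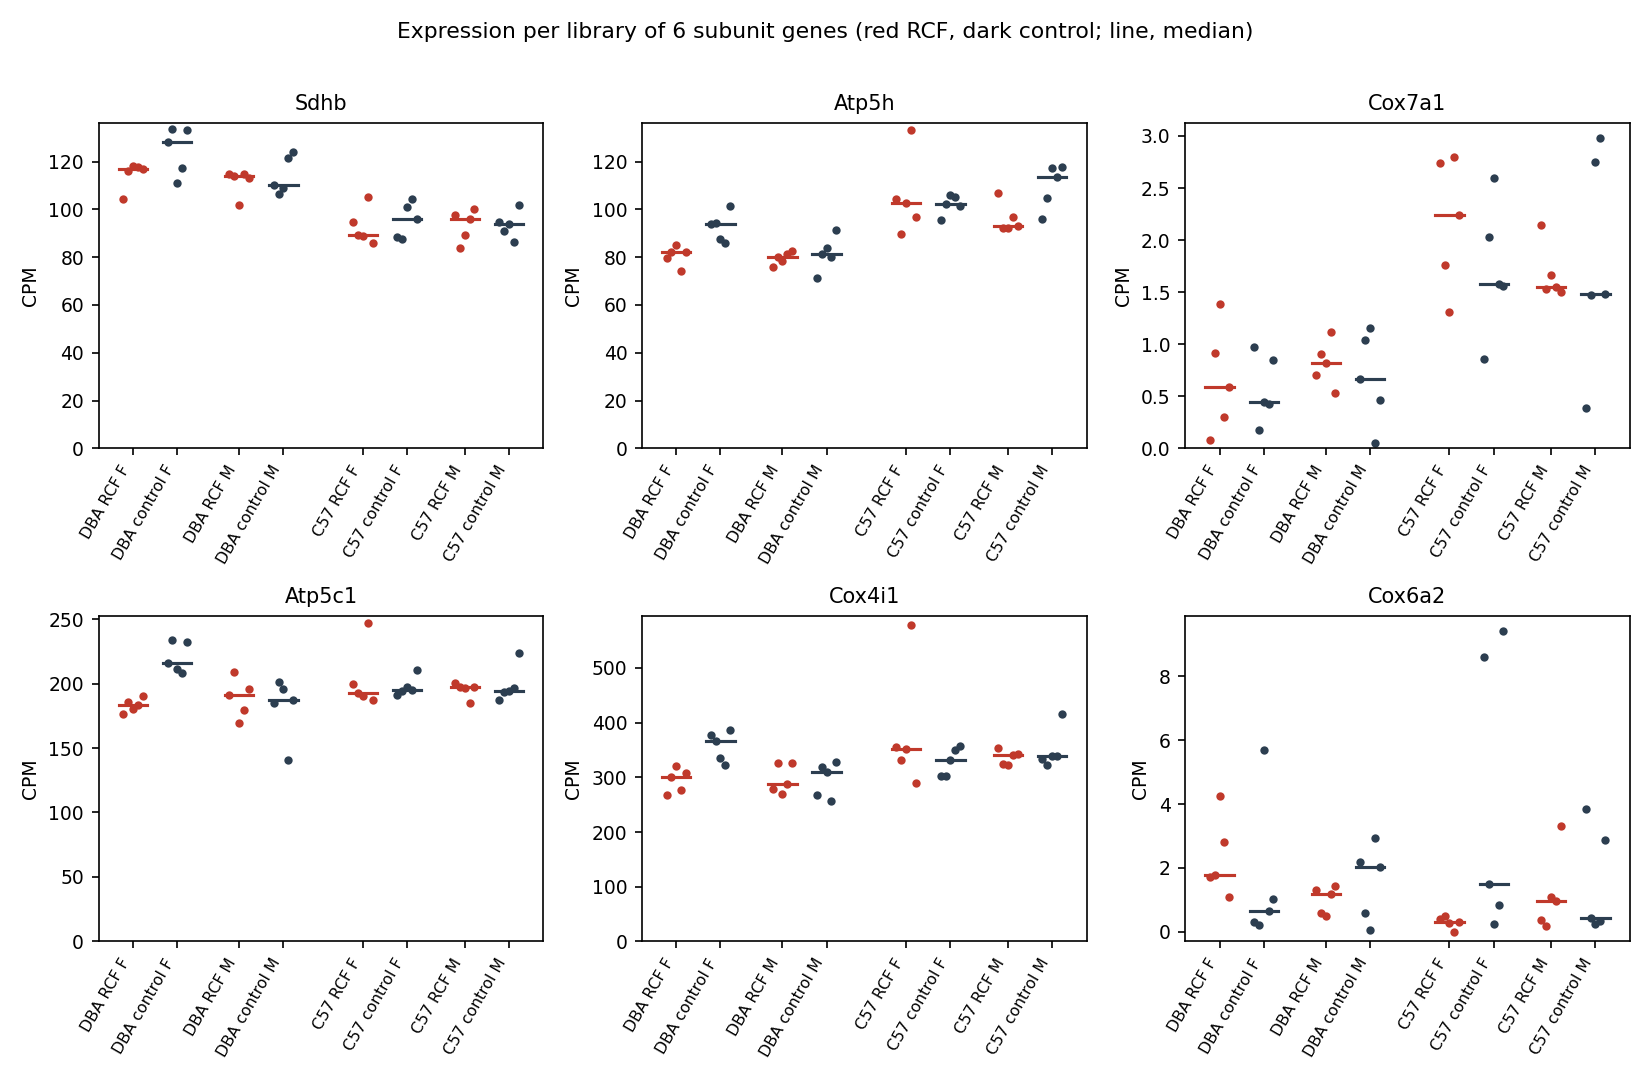
CPM of 6 member genes in each library of the 8 groups, with linear axes from 0 (Cox6a2 slightly below 0 so that its lowest points show). Each point is 1 library, red for RCF and dark for control, and lines are medians. Sdhb is higher and Atp5h and Cox7a1 are lower in the DBA groups on the left, and Cox6a2 is high in single libraries.

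Cox7a1 had the largest strain difference but a low level (ENSMUSG00000074218.3, chr7:30184144-30186078, + strand). It ran from 0.080 to 1.39 CPM with a median of 0.761 in DBA RCF mice, against 1.31 to 2.80 with a median of 1.71 in C57 RCF mice. In controls it ran from 0.054 to 1.16 with a median of 0.565 in DBA, against 0.388 to 2.98 with a median of 1.57 in C57. In RCF mice 1 DBA library lay within the C57 range. The log2 fold change was -1.38 (SE 0.36) in RCF mice and -1.49 (SE 0.36) in controls, with edgeR adjusted p of 0.004452 and 0.003072. Its partner isoform Cox7a2 was not called in either comparison.

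Among the ubiquitous subunits of complex IV, Cox7c was lower in DBA by 0.30 (SE 0.09) in RCF mice and by 0.35 (SE 0.09) in controls on the log2 scale. Cox5b fell by 0.28 (SE 0.07) in RCF mice and by 0.20 (SE 0.07) in controls, where its edgeR adjusted p of 0.046 was lost in 12 of 20 fits without 1 library. Cox6c fell by 0.33 (SE 0.07, edgeR adjusted p 0.0007974) and Cox4i1 by 0.27 (SE 0.08, edgeR adjusted p 0.010) in RCF mice. In controls Cox6c had a log2 fold change of -0.15 and Cox4i1 of -0.06, and neither was called. Cox6a1 was higher in DBA controls by 0.26 (SE 0.08, edgeR adjusted p 0.031), and its log2 fold change of 0.04 in RCF mice was not called. Whether these strain differences changed with RCF is the strain by RCF comparison above, in which 0 members were called. It had 139 to 227 CPM with a median of 201 in DBA controls, against 129 to 204 with a median of 158 in C57 controls. Its call was lost in 7 of 20 fits without 1 library.

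In complexes I and III the strain differences were smaller. Ndufc2, an accessory subunit, was lower in DBA by 0.16 (SE 0.06) in RCF mice and by 0.24 (SE 0.06) in controls on the log2 scale. Uqcrh, the hinge protein of complex III, was lower by 0.19 (SE 0.06) in RCF mice and by 0.21 (SE 0.06) in controls, where its call was lost without replicate 4 of the C57 female controls. The core subunit Ndufs8 fell by 0.17 (SE 0.05) and the accessory subunit Ndufb11 by 0.20 (SE 0.06) in RCF mice. The remaining 11 calls in RCF mice were Ndufa2, Ndufa5, Ndufb2, Ndufb9 and Ndufb10 of complex I, Uqcrc1, Uqcrfs1 and Uqcrq of complex III, Cox7b of complex IV, and Atp5b and Atp5g3 of complex V, all lower in DBA, with log2 fold changes between -0.25 and -0.17. In controls none of them was called. Without replicate 4 of the C57 female RCF group 6 of these 11, Ndufa5, Ndufb2, Ndufb10, Uqcrc1, Uqcrq and Atp5b, lost the call.

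**Figure D5:**
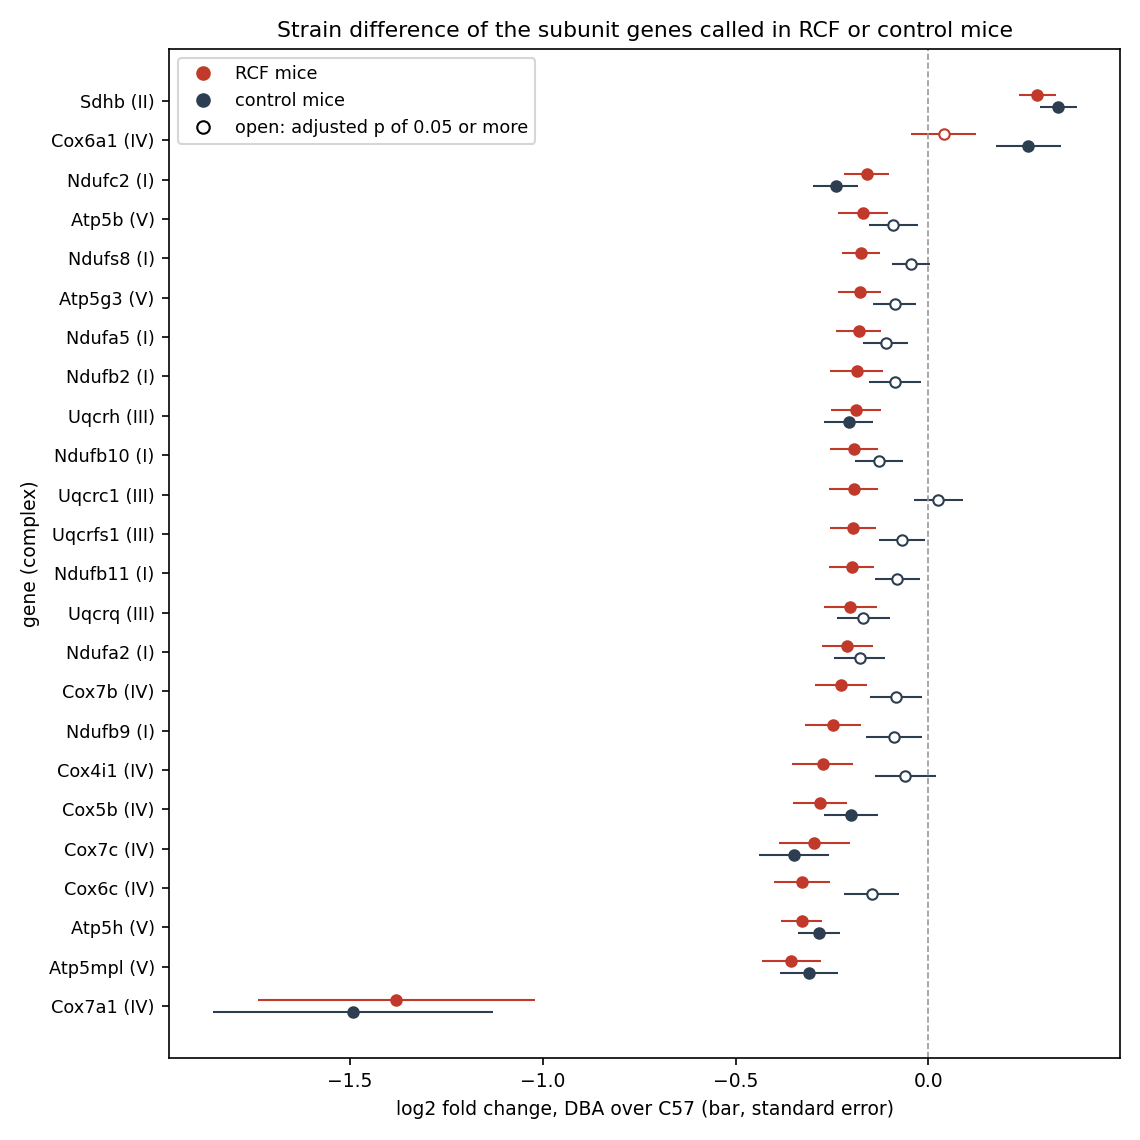
Log2 fold change of DBA over C57 (bars, standard error) for 24 of the 25 genes called in RCF mice (red) or in controls (dark). Filled points have an adjusted p under 0.05. Sdhb stands to the right at 0.28 and 0.34 and Cox7a1 to the left at -1.38 and -1.49, and most other genes lie between -0.36 and 0.

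The number of strain calls in RCF mice rested in part on 1 library and on the scaling. Without replicate 4 of the C57 female RCF group 15 members were called, 2 higher and 13 lower, of which 14 were among the 23. With total counts in place of the scaling factors 11 were called, 10 of them among the 23, and the split was 2 higher and 9 lower, against 1 higher and 22 lower with the scaling factors. Without the 4 libraries with markers of other regions it was 24, 3 higher and 21 lower. The controls then gave 14, 6 higher and 8 lower, against 3 higher and 7 lower with all libraries. No share of all genes is given for these or the other altered fits, so their counts are not set against a background.

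Mitochondrially encoded subunits, which join the same complexes, were lower in DBA as well: 9 of 9 tested were called in RCF mice (median log2 fold change -0.44) and 8 of 9 in controls (median -0.27). Mitochondrial ribosomal protein genes had 2 called higher and 16 lower of 77 in RCF mice, and 6 higher and 11 lower in controls. Assembly factors of complex I had 4 of 15 lower in RCF mice and 4 of 15 lower in controls, those of complex IV 2 higher and 3 lower of 19 in RCF mice and 1 higher and 3 lower in controls, and those of complexes II, III and V 2 of 11 lower in each. Cytochrome c and coenzyme Q synthesis had 4 higher and 3 lower of 15 in RCF mice, and 3 higher and 2 lower in controls. Regulators of mitochondrial biogenesis had 1 of 15 higher in RCF mice and 0 of 15 called in controls. Cytosolic ribosomal protein genes had 2 higher and 23 lower of 91 in RCF mice, and 1 higher and 11 lower in controls. The tricarboxylic acid cycle had 4 of 18 lower in RCF mice and 1 of 18 lower in controls. Glycolysis had 2 higher and 7 lower of 16 in RCF mice, and 2 higher and 4 lower in controls. Cell markers differed between the strains as well. Endothelial markers were called lower in DBA for 3 of 8 genes in RCF mice and 6 of 8 in controls, microglial markers for 6 of 8 in RCF mice and 2 of 8 in controls, and oligodendrocyte markers for 5 of 10 in RCF mice and 0 of 10 in controls. All 5 erythroid markers were called lower in both. All 10 dopamine neuron markers were lower in both, with 3 called in RCF mice and 0 in controls. The part of cell content in the strain results was not tested.

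Between the sexes 0 members were called, in RCF mice (0.0759% of all genes were) or in controls (0.0922%), and DESeq2 also called 0. Averaged over the strains, the members were nevertheless mostly higher in females. By summed CPM the strains differed in controls. The median library had 10639 CPM in DBA females and 9415 in DBA males, but 9806 in C57 females and 10185 in C57 males. After RCF it had 9257 and 9075 CPM in DBA females and males, and 9704 and 9505 in C57 females and males. The DBA RCF means ran the other way, at 9141 CPM in females and 9254 in males. In RCF mice 67 of 79 members were higher (52.1% of all genes were), with a median log2 fold change of 0.05, and 3 had an unadjusted p under 0.05 (3.43% of all genes were higher at that p). Without replicate 4 of the C57 female RCF group, 41 of 80 tested members were lower in females and 0 of those 41 had an unadjusted p under 0.05. Without the 4 libraries with markers of other regions the median was 0.01. In controls 75 of 79 were higher (47.1% of all genes were), with a median of 0.08, and 10 had an unadjusted p under 0.05 (4.88%). In controls the smallest p belonged to Ndufs6 (0.19), Ndufc2 (0.17) and Ndufa5 (0.17), with edgeR adjusted p of 0.234 to 0.263, and Ndufb4 (-0.19), Ndufv3 (-0.04) and Cox7a1 (-0.17) led the lower members. In RCF mice it belonged to Uqcrfs1 (0.14), Sdhc (0.10) and Uqcr11 (0.15), with edgeR adjusted p of 0.634 to 0.681, and Ndufs1 (-0.05), Cox6a2 (-0.37) and Atp5g2 (-0.05) led the lower ones.

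The members moved together from library to library. Over deviations of log2 CPM from the group means in 40 libraries, the median Pearson r between members was 0.53 over 3081 pairs. It was highest within the 11 ubiquitous subunits of complex IV, at 0.80 over 55 pairs. The mean of complex I followed those of complexes III, V and IV (ubiquitous) with r of 0.95, 0.94 and 0.93, and complex II followed the others less closely, with r of 0.78 to 0.85. Cox6c (0.93), Cox4i1 (0.90) and Cox5a (0.88) followed the mean of the other members most closely. Cox6a2 (-0.31), Cox4i2 (-0.16), Atp5s (-0.15) and Cox6b2 (-0.03) did not follow it. These values are descriptions. The libraries share their depth scaling and the tissue in each punch, and replicate 4 of the C57 female RCF group is high in most members.

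Beyond the chain itself, the mean of the members followed mitochondrial ribosomal protein genes (r = 0.86, n = 40 libraries) and the tricarboxylic acid cycle (0.77). It followed parvalbumin type markers (0.59), pan-neuronal markers (0.59) and glycolysis (0.58) less closely. The mitochondrially encoded subunits followed it weakly (0.25), dopamine neuron markers did not (-0.19), and total counts did not (-0.12). Among the tissue isoforms, Cox6a2 followed the hypothalamic (0.69), striated muscle (0.64) and forebrain (0.51) marker means, and Cox7a1 the oligodendrocyte mean (0.62). Cox6a2 ran against the dopamine neuron (-0.58), oligodendrocyte (-0.50) and astrocyte (-0.41) means. The level of Cox6a2 was highest in replicates 5 and 1 of the C57 female controls, at 9.42 and 8.597 CPM, and in replicate 3 of the DBA female controls, at 5.68 CPM.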

How the data were processed

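RNA from frozen midbrain punches was purified on Norgen columns, and single reads of 75 nt came from a stranded Universal Plus mRNA-Seq library on a NextSeq 500, per the labels' protocols. The submitters' processing notes name bcl2fastq 2.20, cutadapt 1.11, FastQC and GRCm38/mm10. Which aligner, counter, strand setting and annotation were used is not given in the sources used here. Raw read counts per gene and library were deposited by the authors, with no normalization. Symbols came from GENCODE M21 by versioned identifier (54487 of 55471) or without the version (657), and 327 had none. A count was present for 42664 genes.

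Genes were kept by edgeR's filterByExpr over the 8 groups (18441), scaled by trimmed mean of M-values (factors 0.905 to 1.09), and tested with glmQLFit and glmQLFTest in 1 model of 40 libraries with a mean per group (32 residual degrees of freedom, R 4.3.3, edgeR 4.0.16). P-values were adjusted by Benjamini-Hochberg over all genes, threshold 0.05. The steps were tested on simulated data. Levels per kb use the union of a gene's exons. Marker and pathway sums are CPM of total counts. Alternatives were DESeq2 1.42.0, other scaling, no filter, the compared groups alone, a replicate block, each library left out, and, chosen after seeing the data, 4 libraries left out for forebrain or hindbrain markers.

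Named genes were representative core subunits, isoform families, and in each comparison the members called (at most 8 by p in each direction in full) or, where fewer than 3 passed, 3 each way by smallest p. Further calls are named by their count, and 1 called member is not reported here. Members, lists and tests were chosen with earlier results of these data known. No pair of libraries within a group agreed within sampling noise (lowest chi-square per degree of freedom 5.51 over 80 pairs). Intervals and SDs do not cover amplification bias, since no molecular identifiers are named.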

Additional observations from a re-analysis of the deposited data

Results flagged for a closer look

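Within groups of 5, a library was singled out where its gap to the nearest other library exceeded 0.71 of the whole range. Chance flags about 1 in 20 groups, and 69 of 664 combinations of member and group passed (10.4%), 28 of them through replicate 4 of the C57 female RCF group. The values below are those of the complexes, the representative subunits and the isoform families.

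Replicate 4 of the C57 female RCF group was the highest of its group in every case. Its sums were 946.3 CPM for complex II (others 728 to 790), 1237 for complex III (860 to 966), 2542 for complex IV (1472 to 1774), 5029 for complex V (3305 to 3724) and 13368 for all members (8972 to 10168). The genes were Atp5a1 at 1256 CPM, Atp5b at 1659, Cox4i1 at 579.0, Cox5a at 268.7, Cox6a1 at 260.6, Cox6b1 at 231.2, Ndufs1 at 199.3, Ndufv1 at 183.0, Sdha at 669.2 and Uqcrc1 at 379.4. This library also held Hoxb5 at 30.6 CPM of total counts and the highest pan-neuronal sum. The part of tissue content in its high levels was not tested.

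In replicate 3 of the DBA female controls, with forebrain markers, complex II summed to 689.6 CPM (others 842 to 901), Sdha stood at 437.0 (563 to 602) and Cox6a2 at 5.683 (0.2209 to 1.02). In replicate 5 of the C57 male controls, also with forebrain markers, Cox4i1 stood at 416.3 (323 to 339) and Cox6a1 at 203.6 (156 to 170). Replicate 1 of the C57 male RCF group was high, with 975.8 CPM for complex III, 10102 for all members, Cox7a1 at 2.149 and Cox7b at 129.6.

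In replicate 4 of the DBA male controls Atp5g1 was low at 79.72 CPM (106 to 111) and Sdha low at 434.2 (531.5 to 553), while Atp5g2 was high at 16.29 (9.147 to 10.7). Sdhb was low in replicate 3 of the DBA male RCF group at 101.8 CPM (113 to 115) and in replicate 1 of the DBA female RCF group at 104.5 (116 to 118). In replicate 4 of the DBA female controls Atp5b was low at 1086 CPM (1148 to 1168) and Cox7b low at 106.7 (126 to 133.5). Cox7b was also low in replicate 1 of the DBA male controls at 92.15, and Cox7a2 high in replicate 5 of the DBA female controls at 110.6. The others were Cox4i2, low in replicate 2 of the C57 female controls at 0.9099 CPM, Cox6a2, high in replicate 5 of the C57 male RCF group at 3.302, and Cox6b2, high in replicate 4 of the DBA male RCF group at 3.662.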

How the results depend on the processing

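DESeq2 called 1 member in C57 females (Cox6a2, adjusted p 0.021). Strain calls in RCF mice numbered 11 with total counts as the scaling, where 13 of the 23 calls were lost, among them Ndufs8 (edgeR adjusted p 0.0631), Ndufb11 (0.0557), Ndufc2 and Uqcrh. With 1 library left out they numbered 15 to 30, the lowest without replicate 4 of the C57 female RCF group, where 9 of the 23 were lost. With no filter 5 were lost, and with the block or without the 4 libraries 1, Atp5b. With the longest transcript the medians by complex were 71.5, 69.3, 89.3, 100.2 and 109.1 CPM per kb for complexes I to V. In controls the strain count ran from 8 to 15 with 1 library left out. Cox5b lost its strain call in controls with total counts (adjusted p 0.0637), with no filter (0.0779) and with the replicate block (0.0507), and in 12 of 20 fits without 1 library (up to 0.0921). Cox6a1 lost its call there in 7 of 20 (up to 0.0741) and Uqcrh in 1 (0.0537). Without the 4 libraries with markers of other regions the sign turned for Sdha in C57 males (log2 fold change -0.017) and on average (-0.027), and for Ndufb6 on average (-0.00054). With 1 library left out, log2 fold changes that were not called crossed 0 for Ndufa11 (-0.022 to 0.102) and Atp5g2 (-0.063 to 0.237) in C57 males, Cox6b2 in DBA males (-0.507 to 0.050), Cox7a1 in DBA females (-0.286 to 0.475), Ndufb6 on average (-0.017 to 0.029) and Cox6a2 between RCF sexes (-0.530 to 0.067). The cause of these changes was not tested. The median over the members turned sign in C57 females and DBA males, as given above, and between RCF sexes without replicate 4 of the C57 female RCF group. The other medians over all members, call counts and genes named by smallest p kept their direction under the alternatives run. Some values outside that set turned sign. The complex II median in C57 males went from -0.007 to 0.029 without control replicate 5. Without replicate 4 of the C57 female RCF group every complex median in C57 females turned negative. Without it Sdha turned in C57 females (0.004 to -0.068), between strains in RCF mice (-0.031 to 0.005) and between RCF sexes (0.0009 to -0.035).

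Same-numbered RCF and control libraries did not deviate together (r from -0.274 to 0.176 over 20 pairs), so the numbers give no pairing. The fit with the replicate block called 9 members between strains in controls and 23 in RCF mice, and 0 in the other comparisons.

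With 5 libraries a group and standard errors near 0.08 for abundant members, RCF differences of the size seen in DBA females were not separated from noise after adjustment over all genes. Members of under 3 CPM per kb rest on few reads.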
